A study of Mus musculus with 35 samples.

Results

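The COPI, COPII and translocon machinery is the set of proteins that moves newly made secretory and membrane proteins into the endoplasmic reticulum (ER) and carries them on to the Golgi. A list of 50 genes by function defined it, and 45 of the 50 had a probe set whose annotation named them alone, out of 17097 genes measured in that way. Copb1, Sec61g, Srp19, Srp68 and Trappc1 were not analysed here. Each gene was represented by its brightest probe set, the one with the highest mean over all arrays. The mean of the 45 probe sets over all mice lay between 6.08 and 11.39 on the log2 scale.

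The data are liver RNA of 35 wild-type adult male C57Bl/6 mice on Affymetrix arrays, 1 array per mouse. In groups of 5, mice inhaled air alone or styrene at 1, 5, 10, 20, 40 or 120 ppm during 1 exposure of 6 hours and were killed on the following morning. Styrene is an industrial solvent and plastics monomer that liver enzymes oxidise to a reactive epoxide. The groups share 1 sex, 1 inbred strain and killing on the morning after exposure. By the labels the animal numbers rise with concentration, in blocks that do not overlap between groups. Any order of handling that followed these numbers cannot be told apart from concentration. Per the labels the replicates are separate mice, and the number of arrays limits the precision. The RNA is of whole liver, so that fewer cells of a type and less RNA per cell cannot be told apart.

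Proteins with a signal sequence are recognised on the ribosome by the signal recognition particle, docked at its receptor and threaded through the Sec61 channel, where the TRAP complex assists and signal peptidase cuts the signal off. Folded cargo leaves the ER in vesicles coated by COPII. COPI-coated vesicles bring escaped ER residents and cargo receptors back from the Golgi, and tethers and SNARE proteins let vesicles dock and fuse. Hepatocytes use this route to secrete albumin, lipoproteins and most other plasma proteins.

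Many member promoters hold the same short sequence, and the windows of 9 members whose transcripts differed at 120 ppm are shown for that reason and for the contrast between them. RefSeq promoter sequences of the GRCm38.p6 mouse assembly were available for 37 of the 45 members, as 39 promoters of 300 bases, with 250 before and 50 after the start. ACGTG, the core of the motifs that the unfolded protein response factors XBP1 and ATF6 are known to bind, was searched on both strands. It was present in 25 of the 39 member promoters, or 64.1%, against 19.6% of all 32851 promoters of the table. Among the 6052 promoters of genes with a probe set no dimmer than the dimmest member, 27.2% held it. The longer TGACGTGG, which contains ACGTG, was in the promoters of Copb2, Sec23a and Sec24d. That is 7.69% of the member promoters, against 0.676% of all and 0.859% of those 6052. TGACGTCA, which cannot hold ACGTG on the same bases, was in 1 member promoter, or 2.56%, against 1.79% of all and 3.02% of the 6052. CCAAT was in 38.5% of member promoters, 37.4% of all and 38.3% of the 6052. No member promoter held the longer ER stress elements ERSE or ERSE-II in full, which 0.119% and 0.0365% of all promoters held. A match is a run of letters, not a site shown to be used, and it does not tell which factor, if any, binds there. ACGTG was in the promoters of the 3 matched members that were higher at 120 ppm, of 7 of the 12 that were lower and of 14 of the 22 that did not pass.
The windows run from 100 bases before the start to 30 after it, 5′ to 3′ on the gene's strand, with capitals for ACGTG on either strand (CACGT on the strand shown) and for TGACGTGG. Sec23a lies at chr12:59011988-59012117, minus strand; Sec24a at chr11:51756805-51756934, minus strand; Spcs1 at chr14:31001637-31001766, minus strand. These 3 were higher at 120 ppm.
Sec23a: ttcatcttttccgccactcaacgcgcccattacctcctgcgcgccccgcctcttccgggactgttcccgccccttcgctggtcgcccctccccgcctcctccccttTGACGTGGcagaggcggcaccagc
Sec24a: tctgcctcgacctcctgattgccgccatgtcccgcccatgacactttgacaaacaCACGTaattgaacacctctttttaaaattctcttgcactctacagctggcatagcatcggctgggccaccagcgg
Spcs1: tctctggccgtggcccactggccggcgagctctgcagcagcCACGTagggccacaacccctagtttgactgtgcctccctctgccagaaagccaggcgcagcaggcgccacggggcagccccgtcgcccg
The next 6 were lower at 120 ppm. Sec24d lies at chr3:123267396-123267525, plus strand. Sec13 lies at chr6:113740652-113740781, minus strand, and Copg1 at chr6:87887840-87887969, plus strand. Tmed9 lies at chr13:55593035-55593164, plus strand, Sec61b at chr4:47474561-47474690, plus strand and Spcs2 at chr7:99858854-99858983, minus strand. The windows of Sec61b and Spcs2 hold no ACGTG.
Sec24d: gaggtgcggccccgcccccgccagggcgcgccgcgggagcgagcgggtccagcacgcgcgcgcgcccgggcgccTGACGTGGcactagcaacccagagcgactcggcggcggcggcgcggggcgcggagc
Sec13: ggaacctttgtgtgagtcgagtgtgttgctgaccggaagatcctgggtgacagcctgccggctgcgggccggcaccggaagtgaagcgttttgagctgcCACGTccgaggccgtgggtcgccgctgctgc
Copg1: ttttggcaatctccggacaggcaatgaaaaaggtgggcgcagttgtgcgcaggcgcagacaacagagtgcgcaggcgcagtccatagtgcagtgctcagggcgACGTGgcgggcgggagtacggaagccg
Tmed9: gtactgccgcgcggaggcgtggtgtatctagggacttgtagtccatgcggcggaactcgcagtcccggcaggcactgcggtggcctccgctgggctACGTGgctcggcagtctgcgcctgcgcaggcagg
Sec61b: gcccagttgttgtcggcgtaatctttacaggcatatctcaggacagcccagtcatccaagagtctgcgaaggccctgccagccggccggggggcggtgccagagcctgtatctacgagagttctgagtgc
Spcs2: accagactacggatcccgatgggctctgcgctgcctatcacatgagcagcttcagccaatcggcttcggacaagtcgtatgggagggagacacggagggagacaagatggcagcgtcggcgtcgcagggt

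At 120 ppm, 18 of the 45 members differed from air, with 15 lower and 3 higher, which is 40% of the members. Over all 45037 probe sets, 19.4% passed, with 6.4% lower and 13% higher. Among the 5771 genes whose probe sets were no dimmer than the dimmest member, a comparison chosen after seeing the data, 24.4% passed, with 13.2% lower and 11.2% higher. The direction of the split over all probe sets depends on scaling. With arrays centred on their median 12.3% of all probe sets were lower and 6.53% higher, and 21.8% of the genes as bright were lower and 6.13% higher, while 17 members were lower and 2 higher. After a further quantile normalization 9.1% of all probe sets were lower and 7.93% higher, with 15 members lower and 3 higher. To pass, a probe set needed a limma p under 0.05 after Benjamini-Hochberg adjustment across the 45037. The 3 that rose were Sec23a and Sec24a of the COPII coat and Spcs1 of signal peptidase. The 15 that fell came from every role, from Copg1 of COPI to the SNAREs Bet1 and Sec22b. The median log2 difference of the 45 members was -0.12, against 0.06 over all probe sets, and with centred arrays -0.21 against -0.04.

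At 40 ppm, 12 members passed, 10 lower and 2 higher, where 14.6% of all probe sets passed (4.89% lower and 9.73% higher). Among the 5771 genes as bright 20.6% passed, 10.1% lower and 10.5% higher. With centred arrays 13 members were lower and 2 higher, where 8.58% of all probe sets were lower and 6.02% higher, and 14.7% of the genes as bright were lower and 6.53% higher. The members that fell were Copg1, Copz1, Sec13, Sec61a1, Sec61b, Ssr2, Spcs2, Lman2, Tmed9 and Trappc4, and those that rose were Sec23a and Sec24a. At 20 ppm, 3 members passed, where 1.03% of all probe sets did (0.619% lower and 0.415% higher) and 3.12% of the genes as bright (2.18% lower and 0.936% higher). Sec61b fell by 0.42 on the log2 scale (SE 0.09, adjusted p = 0.0194), Sec23a rose by 0.41 (SE 0.09, adjusted p = 0.0199) and Sec24a rose by 0.34 (SE 0.09, adjusted p = 0.0476). Leaving out 1 mouse brought the 20 ppm count to 0 in 5 cases, those of replicates 2 and 3 in air and of replicates 2, 4 and 5 at 20 ppm, with 7 to 10 members at an unadjusted p under 0.05 in limma. Leaving out 20 ppm replicate 3 brought it to 5, with Copz1 and Spcs2 added. When limma was fitted to the 20 ppm and air arrays alone it was also 0, with 8 members at an unadjusted p under 0.05. At 1, 5 and 10 ppm no member passed in limma, where 0.00444%, 0.153% and 0% of all probe sets did, with 4, 5 and 5 members at an unadjusted p under 0.05. The 5 ppm share of all probe sets that passed was 0.147% higher and 0.00666% lower, and among the genes as bright it was 0.0866%, with 0.052% higher and 0.0347% lower.

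**Figure D1:**
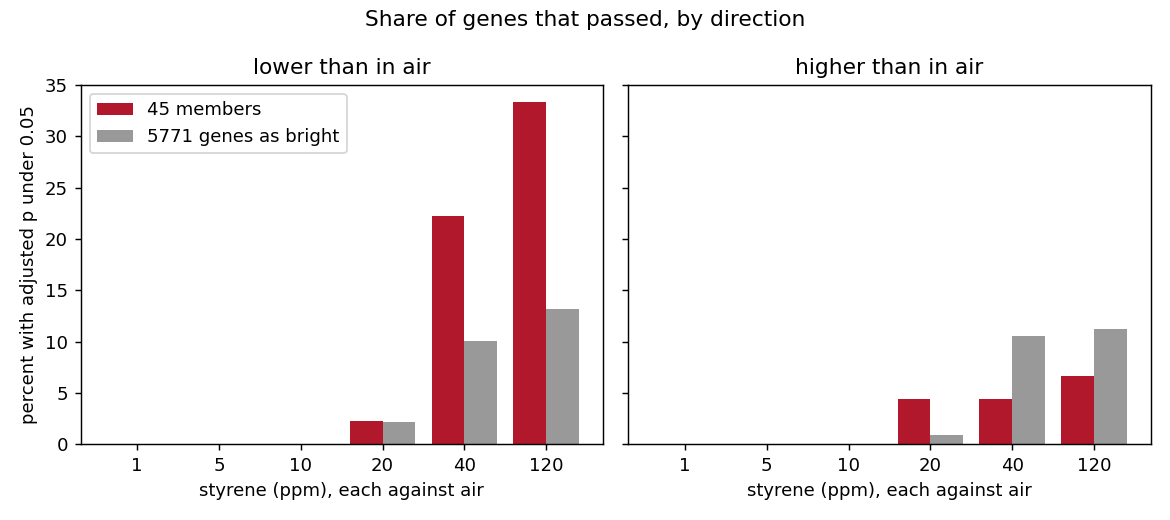
Percent of genes that passed (vertical axis) at each styrene concentration against air (horizontal axis, ppm), lower on the left panel and higher on the right, for the 45 members (red) and the 5771 genes as bright (grey). With the values as deposited, at 40 and 120 ppm the red bars are the taller ones among lower genes and the shorter ones among higher genes.

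No member differed between 120 and 40 ppm in limma, where 0.0244% of all probe sets and 0.0693% of the genes as bright did. At an unadjusted p under 0.05 in limma there were 6 members, and the share over all probe sets at that threshold is not given here. A comparison that uses no air mouse set 40 and 120 ppm together against 1, 5 and 10 ppm together. In it 29 members passed, 24 lower and 5 higher, where 35.9% of all probe sets passed (12.6% lower and 23.3% higher) and 45% of the genes as bright did (20.3% lower and 24.7% higher). All 18 members that passed at 120 ppm against air were among the 29, in the same direction, and the 120 ppm mice are part of both comparisons. The other 11 were Copa, Copz1, Srp9, Srp72, Ssr1, Spcs3, Surf4, Lman1 and Kdelr2, which were lower, and Sec24b and Srp54a, which were higher. The slope on log2(ppm + 1) passed for 22 members, 18 falling and 4 rising with concentration, where 32% of all probe sets passed (10.8% falling and 21.2% rising) and 39.6% of the genes as bright did (19.9% falling and 19.7% rising). In the F test among the 7 groups 23 members passed, where 20.4% of all probe sets and 29.4% of the genes as bright did. The smallest adjusted p in that test was 2.60e-05 for Spcs2, then 8.96e-05 for Sec23a and 9.90e-05 for Sec61b.

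**Figure D2:**
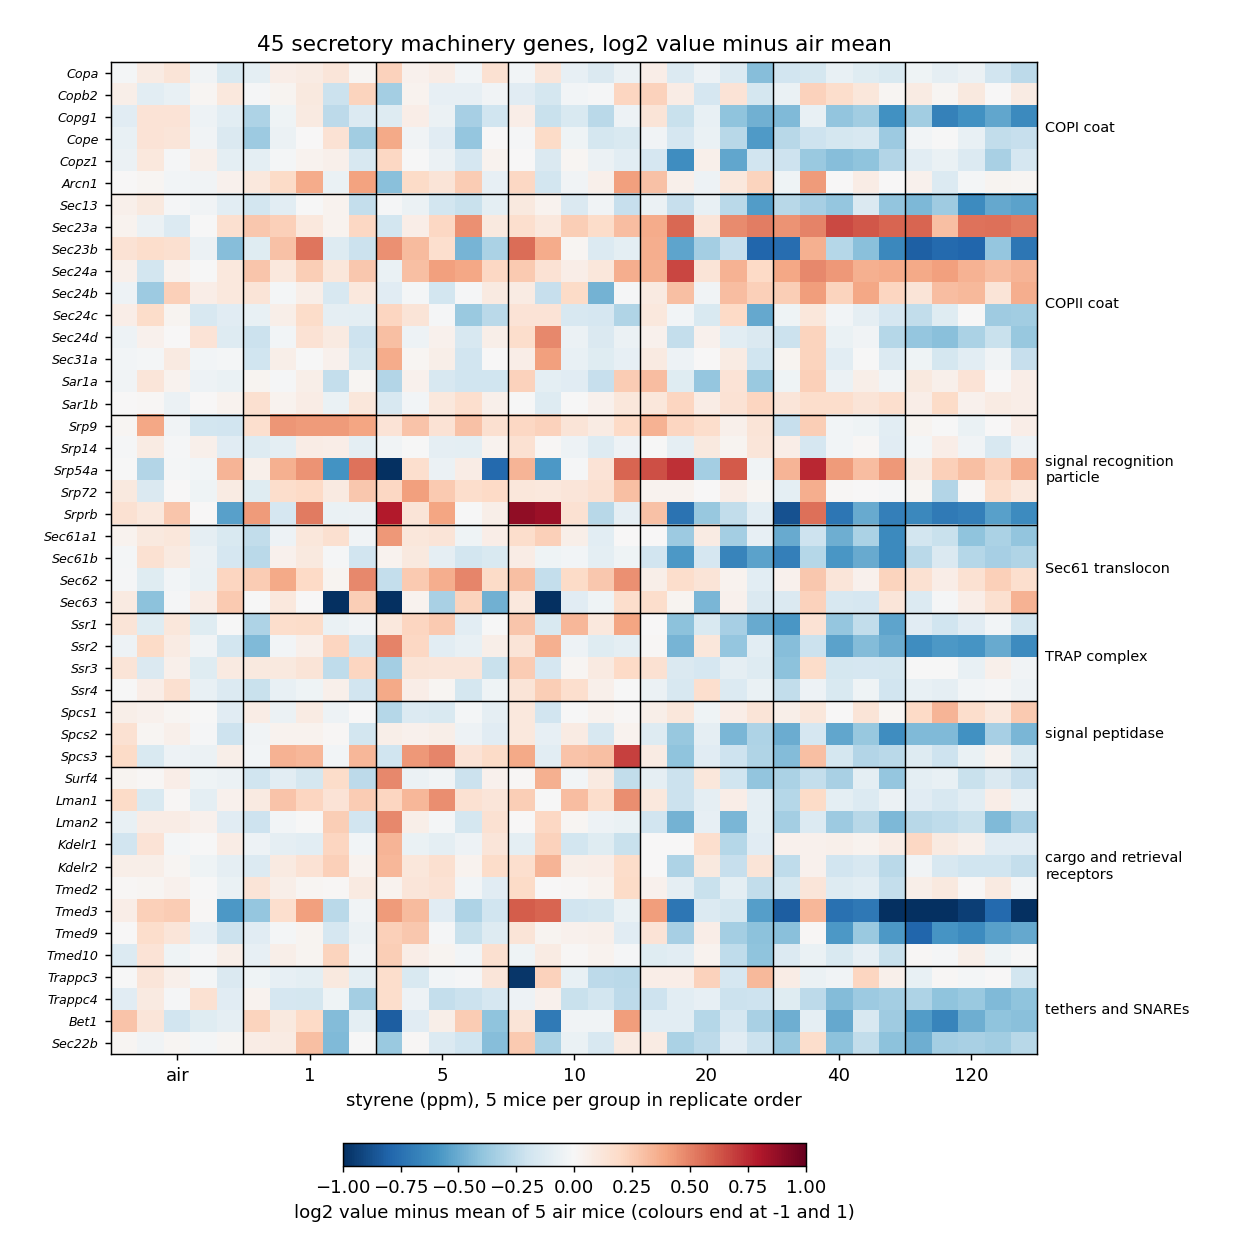
Log2 value of each member (rows, by role) in each of the 35 mice (columns, by styrene concentration in ppm) minus the mean of the 5 air mice, red above and blue below it. Sec23a and Sec24a run red from 20 ppm upward, and Tmed3, Sec23b, Srprb, Ssr2 and Spcs2 run blue at 120 ppm.

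Of the 3 members that rose at 120 ppm, 2 belong to the inner COPII coat. Sec23a and Sec23b are paralogous subunits that activate the GTPase Sar1 and bind Sec24, and Sec24a to Sec24d are the paralogs that select cargo. Sec23a read 9.83, 9.54, 9.79, 9.79 and 9.76 in the 120 ppm mice, against 9.28, 9.19, 9.11, 9.24 and 9.40 in the air mice. All 5 mice at 120 ppm lay above all 5 in air. It rose by 0.50 (SE 0.09), a 1.41-fold higher level (adjusted p = 3.92e-04). Its group means were 9.24 for air, 9.42 for 1 ppm, 9.37 for 5 ppm, 9.45 for 10 ppm, 9.66 for 20 ppm, 9.81 for 40 ppm and 9.74 for 120 ppm. The rise at 40 ppm was 0.56 (SE 0.09, adjusted p = 1.39e-04), with mice at 9.70, 9.74, 9.90, 9.87 and 9.83. The 20 ppm call ended without any of the 5 mice that brought the 20 ppm count to 0, with the highest adjusted p at 0.105. No call for Sec23a at 40 or 120 ppm ended when any 1 mouse was left out.

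Sec23b went the other way. Its 120 ppm mice read 8.74, 8.78, 8.76, 9.16 and 8.83, against 9.69, 9.73, 9.72, 9.497 and 9.12 in air. Air replicate 5, at 9.12, lay below 120 ppm replicate 4, so the groups overlapped by those mice. Sec23b fell by 0.70 (SE 0.20), a 1.62-fold lower level (adjusted p = 0.0162). At 40 ppm its mice were spread from 8.79 to 9.91, and the difference of -0.35 did not pass (adjusted p = 0.253). The change of Sec23a minus the change of Sec23b was 1.20 at 120 ppm (two-sided exact permutation p = 0.00794, the smallest that 5 against 5 mice allow, adjusted p = 0.0143 over 9 paralog pairs). The pairs were chosen after seeing the data. Sec23a and Sec23b had passed in opposite directions on the same arrays, so the p of this pair adds no separate support.

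Of the Sec24 paralogs, Sec24a rose and Sec24d fell at 120 ppm, and Sec24b and Sec24c did not pass. Sec24a read 10.30, 10.33, 10.26, 10.23 and 10.26 at 120 ppm, against 9.97, 9.73, 9.95, 9.91 and 10.02 in air, with no overlap. It rose by 0.36 (SE 0.09, adjusted p = 0.00474) at 120 ppm and by 0.41 (SE 0.09, adjusted p = 0.00217) at 40 ppm. Its 20 ppm call was close to the threshold and ended in 26 of the 35 fits that each left out 1 mouse, including any 1 of the 40 or 120 ppm mice, with adjusted p up to 0.227. Sec24b differed from air by 0.25 and did not pass (SE 0.11, adjusted p = 0.0911). The difference was 0.16 with centred arrays (adjusted p = 0.325) and 0.16 after a further quantile normalization (adjusted p = 0.312). A dim probe set of Sec24b, with a mean of 4.17, rose by 0.44 (adjusted p = 0.0268). Sec24d fell by 0.34 (SE 0.11, adjusted p = 0.0207), with 9.56, 9.52, 9.62, 9.72 and 9.56 at 120 ppm against 9.88, 9.98, 9.94, 10.07 and 9.81 in air. Every 120 ppm mouse lay below every air mouse for Sec24d, and without air replicate 4 its call ended (adjusted p = 0.0549). Sec24c differed by -0.22 and did not pass (adjusted p = 0.195).

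The change of Sec24a exceeded that of Sec24c by 0.57 and that of Sec24d by 0.70, and the change of Sec24b exceeded that of Sec24c by 0.47 and that of Sec24d by 0.59 (two-sided exact permutation p = 0.00794, adjusted p = 0.0143 in each case). Sec24a against Sec24b, by 0.11, and Sec24c against Sec24d, by 0.13, did not pass (exact permutation test, adjusted p = 0.277 for both). The Sec24 pairs were among those chosen after seeing the data. All of them use the same arrays as the comparisons with air, where Sec24a and Sec24d had passed in opposite directions. The p values of the Sec24 pairs therefore add no separate support. The 2 Sar1 genes, whose product starts COPII assembly, differed in their change by -0.02 (exact permutation test, adjusted p = 0.778), and neither passed against air. Sar1b was above all air mice in every 120 ppm mouse by a small margin, with a log2 difference of 0.09 (adjusted p = 0.323). In the outer coat, Sec13, a scaffold protein that pairs with Sec31 and also serves in nuclear pores, read 8.59, 8.68, 8.41, 8.53 and 8.503 at 120 ppm, against 9.09, 9.13, 9.03, 9.003 and 8.93 in air. The groups were apart, and Sec13 fell by 0.50 (SE 0.08, adjusted p = 1.77e-04). It fell by 0.31 at 40 ppm (SE 0.08, adjusted p = 0.0126). Sec31a, its partner, was lower than every air mouse in all 120 ppm mice, and its difference of -0.12 did not pass (adjusted p = 0.398).

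**Figure D3:**
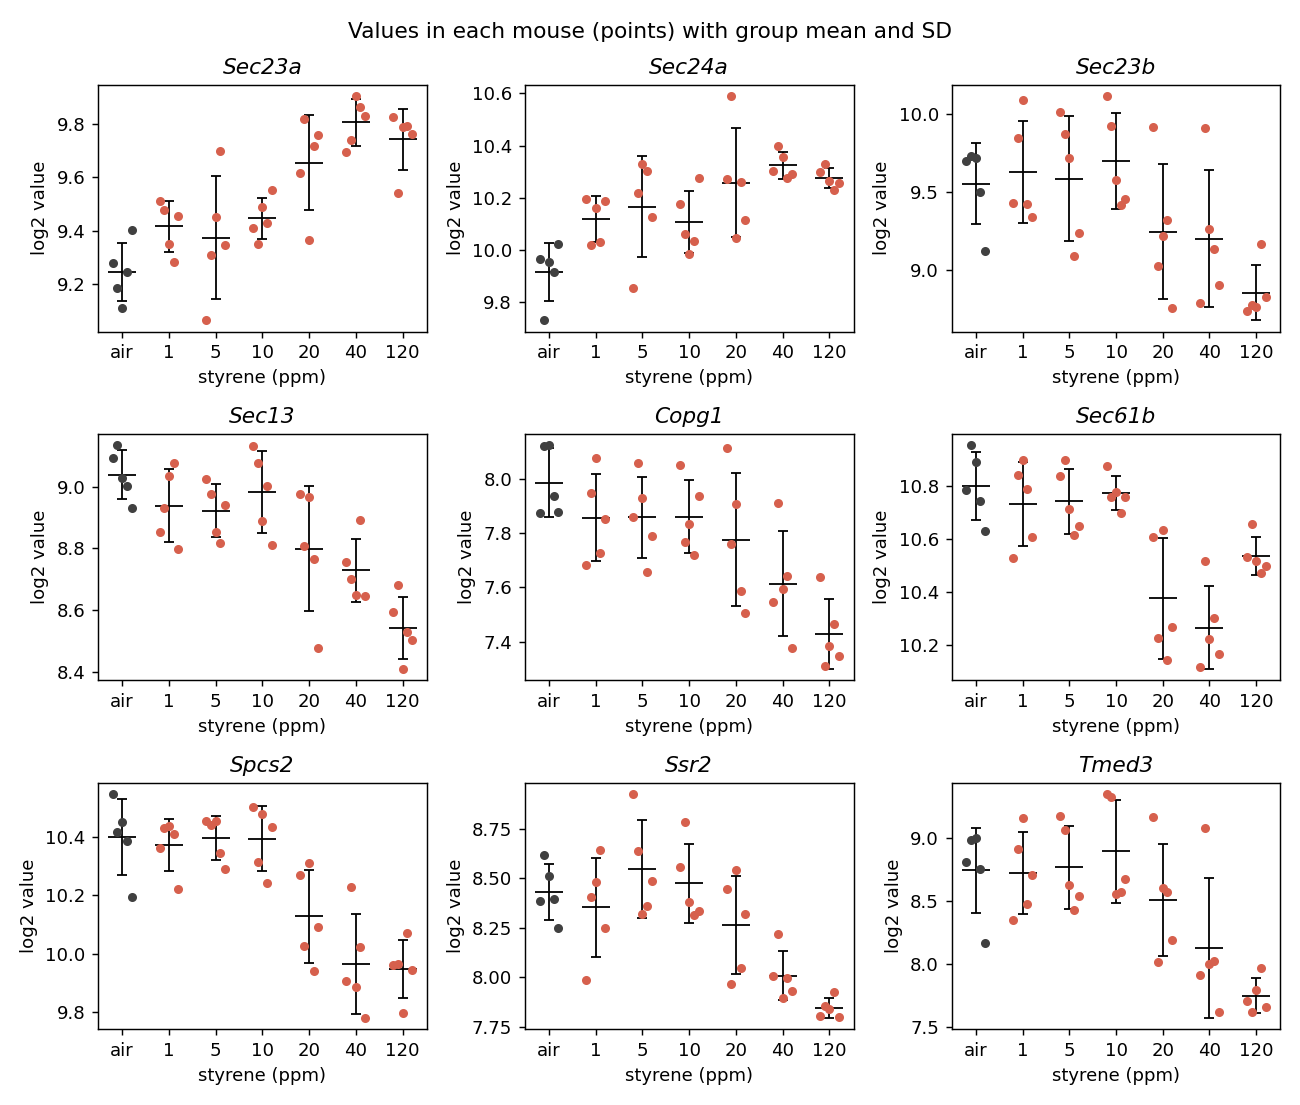
Log2 value of 9 members in each mouse (points, air in grey and styrene in red) by concentration in ppm, with group means and SD (bars). Sec23a and Sec24a sit above air at 120 ppm, the other 7 members sit lower there, and Sec61b is lower at 40 ppm than at 120 ppm.

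Of the 6 COPI subunits measured, 1 passed at 120 ppm and 2 at 40 ppm, all lower. Copg1, the gamma subunit that binds cargo and the coat's own GTPase regulators, read 7.64, 7.31, 7.38, 7.47 and 7.35 at 120 ppm, against 7.87, 8.12, 8.13, 7.94 and 7.88 in air. The groups did not overlap. Copg1 fell by 0.56 (SE 0.11), a 1.47-fold lower level (adjusted p = 5.83e-04). At 40 ppm it fell by 0.37 (SE 0.11, adjusted p = 0.0172), a call that ended without air replicate 3 or 40 ppm replicate 5 (adjusted p up to 0.0630). Copz1, the small zeta subunit, read 9.56, 9.39, 9.34, 9.36 and 9.47 at 40 ppm, against 9.71, 9.88, 9.76, 9.82 and 9.67 in air. It fell by 0.34 there (SE 0.09, adjusted p = 0.0111), with the groups apart. In the 120 ppm mice Copz1 read 9.66, 9.70, 9.63, 9.44 and 9.60, and the difference of -0.16 did not pass (adjusted p = 0.215). For Copa, Copb2, Cope and Arcn1, the other coat subunits, differences at 120 ppm lay between -0.13 and 0.06 and none passed.

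Of the signal recognition particle and its receptor, 1 of 5 measured members passed at 120 ppm. Srprb, the membrane anchor of the receptor, read 5.70, 5.64, 5.66, 5.80 and 5.72 at 120 ppm, against 6.50, 6.45, 6.62, 6.35 and 5.80 in air. The 120 ppm mice lay in a narrow band, and the lowest air mouse, replicate 5, was level with the highest of them to 2 decimals. Srprb fell by 0.64 (SE 0.23, adjusted p = 0.0471). That call ended in 18 of the 35 fits that left out 1 mouse, among them those without air replicate 1, 2, 3 or 4 or any 1 of the 120 ppm mice, with adjusted p up to 0.115. At 40 ppm Srprb did not pass (-0.45, adjusted p = 0.194), with replicate 2 at 6.89 and the other mice between 5.48 and 5.84. Without replicate 2, left out after seeing the data, the difference was -0.69 and passed (adjusted p = 0.0284).

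Srp9, which binds the RNA of the particle together with Srp14 and slows the ribosome, passed the F test (adjusted p = 0.00677) by another pattern. Its group means were 9.54 for air, 9.91 for 1 ppm, 9.74 for 5 ppm, 9.71 for 10 ppm, 9.72 for 20 ppm, 9.51 for 40 ppm and 9.54 for 120 ppm. The 1 ppm mice read 9.70, 9.98, 9.97, 9.96 and 9.93, against 9.56, 9.93, 9.504, 9.35 and 9.35 in air. Air replicate 2 lay among the 1 ppm mice, and the difference of 0.37 did not pass (SE 0.09, adjusted p = 0.268). Without that air mouse it was 0.47 and passed (adjusted p = 0.0235). Srp9 did not differ at 120 ppm beyond its error (0.00, SE 0.09, adjusted p = 0.980; mice at 9.57, 9.53, 9.47, 9.54 and 9.60), and centring the arrays on their median turned its sign (-0.09, adjusted p = 0.519). In the comparison without air mice it fell by 0.26 (SE 0.06, adjusted p = 6.91e-04). Srp54a, the GTPase that reads the signal sequence, varied widely among mice at low concentrations, and near-identical gene copies in mouse may share its probes.

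In the Sec61 translocon both measured channel subunits fell and the 2 accessory proteins did not pass. Sec61a1, the channel itself, read 10.999, 10.96, 10.78, 10.86 and 10.79 at 120 ppm, against 11.22, 11.28, 11.29, 11.09 and 11.03 in air. The groups were apart by a small margin. It fell by 0.30 at 120 ppm (SE 0.10, adjusted p = 0.0307) and fell by 0.43 at 40 ppm (SE 0.10, adjusted p = 0.00412). Sec61b, a small subunit of the channel, read 10.53, 10.65, 10.51, 10.47 and 10.50 at 120 ppm, against 10.78, 10.95, 10.89, 10.74 and 10.63 in air. The lowest air mouse lay just under the highest 120 ppm mouse. It fell by 0.27 at 120 ppm (SE 0.09, adjusted p = 0.0434) and fell by 0.54 at 40 ppm (SE 0.09, adjusted p = 3.10e-04), where the mice read 10.12, 10.52, 10.22, 10.30 and 10.17. The difference between 120 and 40 ppm, 0.27, did not pass (SE 0.09, adjusted p = 0.694). The 120 ppm calls were less stable than those at 40 ppm, which held without any 1 mouse. That of Sec61a1 ended without air replicate 1, 2 or 3 or 120 ppm replicate 3, 4 or 5 (adjusted p up to 0.0800), and that of Sec61b without air replicate 1, 2, 3 or 4 or 120 ppm replicate 1, 3, 4 or 5 (adjusted p up to 0.114). Sec62 and Sec63, which serve the insertion of some proteins after translation, differed by 0.16 (adjusted p = 0.333) and 0.08 (adjusted p = 0.857).

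In the TRAP complex 1 passed at 120 ppm. Ssr2 read 7.81, 7.86, 7.84, 7.92 and 7.80 at 120 ppm, against 8.38, 8.62, 8.51, 8.39 and 8.25 in air. The groups were well apart, and Ssr2 fell by 0.59 (SE 0.12), a 1.501-fold lower level (adjusted p = 0.00112). At 40 ppm it fell by 0.42 (SE 0.12, adjusted p = 0.0169), and without air replicate 2 that call ended (adjusted p = 0.0507). Ssr1 read 9.82, 9.73, 9.82, 9.91 and 9.75 at 120 ppm, against 10.06, 9.81, 10.05, 9.81 and 9.93 in air. The groups overlapped, and the difference of -0.13 did not pass (adjusted p = 0.477). At 40 ppm Ssr1 read 9.35, 10.08, 9.55, 9.69 and 9.41, with replicate 2 above every air mouse. Its difference of -0.32 did not pass (adjusted p = 0.0689). Without replicate 2, left out after seeing the data, it was -0.44 and passed (adjusted p = 0.0114). The next brightest probe set of Ssr1 fell by 0.56 at 40 ppm with all mice in (adjusted p = 0.00229). A dimmer probe set of Ssr1, with a mean of 5.23, fell by 0.83 at 120 ppm (adjusted p = 0.00349) and fell by 0.72 at 40 ppm (adjusted p = 0.0130). Ssr3 and Ssr4 differed by -0.02 and -0.05 at 120 ppm and did not pass.

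The accessory subunits of signal peptidase did not move together. Spcs2 read 9.96, 9.96, 9.79, 10.07 and 9.94 at 120 ppm, against 10.55, 10.42, 10.45, 10.39 and 10.19 in air. The groups did not overlap, and Spcs2 fell by 0.45 (SE 0.08, adjusted p = 4.62e-04). It fell by 0.44 at 40 ppm (SE 0.08, adjusted p = 8.58e-04), with mice at 9.91, 10.23, 9.88, 10.02 and 9.78. Its means were level up to 10 ppm, at 10.40 for air, 10.37 for 1 ppm, 10.40 for 5 ppm and 10.40 for 10 ppm, and lower from there, at 10.13 for 20 ppm, 9.96 for 40 ppm and 9.95 for 120 ppm. Spcs1 read 10.47, 10.61, 10.45, 10.38 and 10.53 at 120 ppm, against 10.33, 10.31, 10.29, 10.27 and 10.15 in air. Every 120 ppm mouse lay above every air mouse, and Spcs1 rose by 0.22 (SE 0.07, adjusted p = 0.0184). That call was lost when arrays were centred on their median (0.12, adjusted p = 0.205), and without air replicate 5 or 120 ppm replicate 2 (adjusted p = 0.0528 and 0.0548). Another Spcs1 probe set, also bright, differed by 0.01 (adjusted p = 0.918). Spcs3 differed by -0.10 and did not pass against air, and fell by 0.37 in the comparison without air mice (SE 0.09, adjusted p = 0.00112).

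The largest change at 120 ppm among the members was that of Tmed3, 1 of the p24 family of cargo receptors that cycle between ER and Golgi. It read 7.71, 7.62, 7.80, 7.97 and 7.66 at 120 ppm, against 8.81, 8.98, 8.998, 8.75 and 8.17 in air. No mouse overlapped, and Tmed3 fell by 0.99 (SE 0.22), a 1.99-fold lower level (adjusted p = 0.00259). At 40 ppm it read 7.92, 9.07, 7.996, 8.02 and 7.62, and the difference of -0.62 did not pass (adjusted p = 0.0601). Replicate 2 stood above all air mice. Without it, a choice made after seeing the data, the difference was -0.85 and passed (adjusted p = 0.00664). Tmed9, another p24 protein, read 9.08, 9.28, 9.25, 9.33 and 9.36 at 120 ppm, against 9.88, 10.05, 10.00, 9.79 and 9.65 in air. The groups were apart, and Tmed9 fell by 0.61 (SE 0.11, adjusted p = 3.93e-04). It fell by 0.38 at 40 ppm (SE 0.11, adjusted p = 0.0200), a call lost without air replicate 2 or 3 or 40 ppm replicate 3 or 5 (adjusted p up to 0.0636). The p24 proteins Tmed2 and Tmed10 differed by 0.05 and 0.00 at 120 ppm and did not pass (adjusted p = 0.669 and 0.998).

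Of the other cargo receptors, the lectin Lman2 fell by 0.30 at 120 ppm (SE 0.10, adjusted p = 0.0311) and fell by 0.31 at 40 ppm (SE 0.10, adjusted p = 0.0321). It read 9.16, 9.18, 9.21, 8.99 and 9.10 at 120 ppm, against 9.36, 9.51, 9.51, 9.48 and 9.32 in air, with the groups apart. Neither call held in every fit that left out 1 mouse. The 120 ppm call ended without air replicate 2, 3 or 4 or 120 ppm replicate 4 or 5 (adjusted p up to 0.0806), and the 40 ppm call without air replicate 2, 3 or 4 or 40 ppm replicate 1, 3 or 5 (adjusted p up to 0.0863). Lman1, which carries coagulation factors out of the ER, did not pass against air at any concentration on its main probe set. Of its dimmer probe sets, 1 with a mean of 5.84 rose by 0.59 at 40 ppm (adjusted p = 0.0320), and 1 with a mean of 5.36 fell by 0.34 at 120 ppm (adjusted p = 0.0478). The means of the main probe set were 10.63 for air, 10.82 for 1 ppm, 10.89 for 5 ppm, 10.87 for 10 ppm, 10.58 for 20 ppm, 10.55 for 40 ppm and 10.55 for 120 ppm. It fell by 0.31 in the comparison of 40 and 120 ppm with 1, 5 and 10 ppm (SE 0.06, adjusted p = 1.43e-04). Kdelr2, which returns escaped ER proteins, fell by 0.30 in that comparison (SE 0.05, adjusted p = 8.38e-05), and its paralog Kdelr1 differed by 0.05 (adjusted p = 0.558). Against air Kdelr2 did not pass at 40 ppm (-0.17, adjusted p = 0.186) or 120 ppm (-0.17, adjusted p = 0.167). At 10 ppm all its mice lay above all air mice. Surf4, a receptor for lipoproteins and other cargo, was lower than every air mouse in all 120 ppm mice, and its difference of -0.15 did not pass (adjusted p = 0.329).

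**Figure D4:**
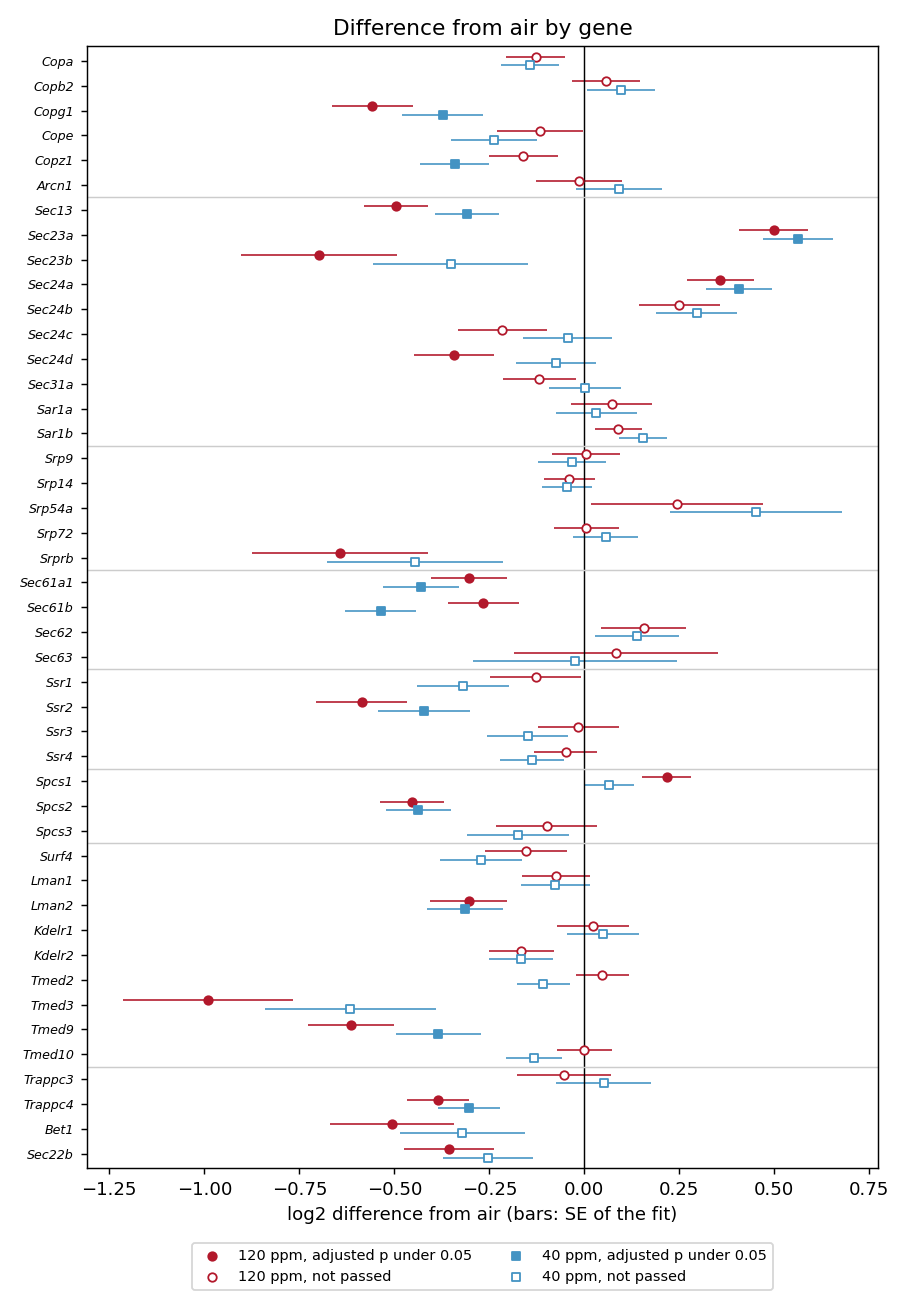
Log2 difference from air for the 45 members (rows, by role) at 120 ppm (red circles) and 40 ppm (blue squares), with SE bars. Filled symbols passed. Most filled symbols lie left of 0, and those right of 0 are Sec23a, Sec24a and, at 120 ppm, Spcs1.

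Of the 4 tethers and SNAREs measured, 3 fell at 120 ppm. Trappc4, a core subunit of the TRAPP tether, read 8.20, 8.10, 8.13, 8.06 and 8.10 at 120 ppm, against 8.39, 8.60, 8.49, 8.65 and 8.40 in air. The groups were apart, and Trappc4 fell by 0.39 (SE 0.08, adjusted p = 0.00157). It fell by 0.30 at 40 ppm (SE 0.08, adjusted p = 0.0122). A dim probe set of Trappc4, with a mean of 2.82, went the other way at 120 ppm (0.28, adjusted p = 0.0203), and the mean of its probe sets did not pass (-0.05, adjusted p = 0.613). The SNARE Bet1 read 6.82, 6.71, 6.89, 6.97 and 6.96 at 120 ppm, against 7.66, 7.49, 7.19, 7.26 and 7.29 in air, and fell by 0.51 (SE 0.16, adjusted p = 0.0278). Its partner Sec22b read 8.19, 8.34, 8.36, 8.33 and 8.41, against 8.70, 8.64, 8.70, 8.66 and 8.70 in air. The groups were apart for both SNAREs, and the air mice of Sec22b lay closely together. Sec22b fell by 0.36 (SE 0.12, adjusted p = 0.0322), and its other probe set differed by -0.18 (adjusted p = 0.263). The call of Bet1 ended without air replicate 1 or 2 or 120 ppm replicate 1 or 2 (adjusted p up to 0.0757). That of Sec22b ended without air replicate 1, 3 or 5 or 120 ppm replicate 1 or 4 (adjusted p up to 0.0753). Without 40 ppm replicate 2, left out after seeing the data, Sec22b also passed at 40 ppm (-0.36, adjusted p = 0.0339). With all mice it did not (-0.25, adjusted p = 0.147).

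The separation of mice was counted on the same arrays, so it adds no separate support to the limma counts. At 120 ppm, 15 members lay below every air mouse in all 5 mice and 4 lay above, where 4.73% and 8.9% of all probe sets did. These are not the same members as in limma. Sec31a, Surf4 and Sar1b lay apart without passing, and Sec23b and Sec61b passed with overlap. Shares that lay apart among the genes as bright are not given here. At 40 ppm there were 9 below and 3 above, where 4.22% and 8.64% of all probe sets were. At 1, 5, 10 and 20 ppm no member lay wholly below air, and 0, 1, 2 and 2 lay wholly above, where 1.17%, 1.34%, 1.08% and 2.14% of all probe sets lay apart either way. The 16 members that passed in no comparison of concentrations were Copb2, Cope, Arcn1, Sec24c, Sec31a, Sar1a, Sar1b, Srp14, Sec62, Sec63, Ssr3, Ssr4, Kdelr1, Tmed2, Tmed10 and Trappc3, with adjusted p in the F test between 0.0542 and 0.942. Of the 45 members, 32 had more than 1 probe set. For members that passed at 120 ppm there were 16 further probe sets, of which 15 had the direction of the main one and 7 passed in that direction.

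Within groups, 1 mouse stood apart in many members at once. The 40 ppm mouse of replicate 2 was the highest of its 5 for 32 of the 45 members, or 71.1%, and for 32.3% of the 5771 genes as bright. Next came 20 ppm replicate 1, highest for 48.9% of the members and 17.8% of those genes, and 5 ppm replicate 1 with 46.7% and 36.3%. Among the air mice, replicate 5 was the lowest for 51.1% of the members and 23.4% of the genes as bright. Without 40 ppm replicate 2, which was left out after seeing the data, 16 members passed at 40 ppm, 2 higher and 14 lower. Of all probe sets 12.5% passed in that fit, 8.21% higher and 4.25% lower. The gains were Srprb, Ssr1, Tmed3 and Sec22b, and no call was lost. That mouse was the highest of its group for each of these genes, so leaving it out lowers their 40 ppm means. The gains add no separate support. Sec24c was the only member whose slope on the position of the animal number within its group passed (-0.08 per place, adjusted p = 0.0124 in limma), where 2.32% of all probe sets passed (0.984% falling and 1.34% rising) and 5.93% of the genes as bright did (2.62% falling and 3.31% rising). At an unadjusted p under 0.05 this slope held for 15 of the 45 members and for 5754 of the 45037 probe sets.

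**Figure D5:**
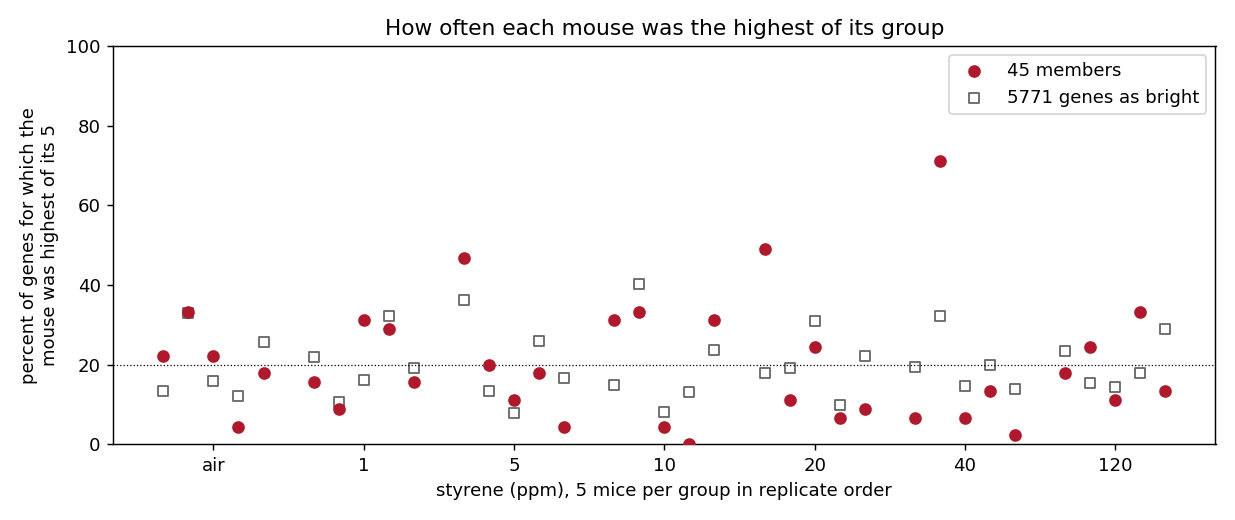
Percent of genes for which each mouse had the highest value of its group of 5 (vertical axis), by mouse in order of styrene concentration in ppm (horizontal axis), for the 45 members (red) and the 5771 genes as bright (squares). The dotted line is an equal share. The mouse at 40 ppm with 71.1% stands above all others.

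Measures of the arrays and of other cell types moved with concentration as well. The array median was 3.598 ± 0.0274 at 120 ppm and 3.503 ± 0.0194 in air (SD, n = 5 each, two-sided exact permutation p = 0.00794, adjusted p = 0.0286 over 18 tests). The actin 3′ minus 5′ difference, a reading of RNA integrity, was 0.717 ± 0.0506 at 120 ppm and 0.478 ± 0.0475 in air (SD, n = 5 each, exact permutation, adjusted p = 0.0286), and that of GAPDH was 0.120 at 120 ppm and 0.147 in air (exact permutation, adjusted p = 0.505). The actin difference was also above air at lower concentrations, with 0.724 ± 0.109 at 20 ppm and 0.706 ± 0.0702 at 40 ppm, and the array median was 3.572 ± 0.0209 at 40 ppm (SD, n = 5 each, exact permutation against air, adjusted p = 0.0286 for each). The array median at 20 ppm, 3.530 ± 0.0279, did not pass (SD, n = 5, exact permutation, adjusted p = 0.238). The counts of cell type markers at 120 ppm are to be read against the 6.4% of all probe sets that were lower and the 13% that were higher. Hepatocyte markers summed to log2 levels of 15.93 to 15.998 at 120 ppm, against 15.91 to 15.98 in air, and 2 of 7 passed, both higher. Of Kupffer cell markers 5 of 11 fell, with sums of 10.69 to 11.28 against 11.19 to 12.04 in air. Exocrine pancreas markers, from another secretory tissue, had 2 of 7 lower, with sums of 7.59 to 7.96 against 8.38 to 8.88 in air. Plasma and B cell markers had 3 of 6 higher, with sums of 8.12 to 9.11 against 6.97 to 7.76 in air. Sinusoidal endothelium had 1 of 8 lower and stellate cells 1 of 8 lower. Neutrophils had 1 of 8 higher, erythroid cells 1 of 2 lower, and cholangiocytes and T and NK cells 0 of 4 each in limma. The part of these measures in the members' values was not tested.

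Other genes of the pathway, from lists by function, also passed at 120 ppm in both directions, where 6.4% of all probe sets were lower and 13% higher, and 13.2% and 11.2% of the genes as bright. Of 27 measured COPI and COPII partners, 4 were higher and 8 lower, 44.4% in all. Mia2 rose by 1.13 (adjusted p = 6.60e-04) and Mia3 by 0.77 (adjusted p = 0.00147), and both encode receptors at ER exit sites for large cargo such as lipoproteins and collagen. The p24 gene Tmed5 rose by 0.90 (adjusted p = 0.0139), and the lectin gene Lman2l fell by 0.54 (adjusted p = 0.00610). Of 17 genes of translocation and glycosylation, 1 was higher and 3 lower, 23.5% in all and near the 24.4% of genes as bright, namely Tram2, which rose by 0.79 (adjusted p = 0.00320), and the oligosaccharyltransferase genes Ostc, Krtcap2 and Rpn2. Ostc fell by 0.43 (adjusted p = 0.0170), Krtcap2 fell by 0.35 (adjusted p = 0.0256) and Rpn2 fell by 0.23 (adjusted p = 0.0359). Of 28 further tethers and SNAREs, only Sec22c, which rose by 0.55 (adjusted p = 0.00354), and Bnip1, which fell by 0.36 (adjusted p = 0.0139), passed, which is 7.14% of them. Of 10 regulators of the secretory programme 3 fell, or 30%. These were Creb3l2, which fell by 0.64 (adjusted p = 0.0311), the ER stress sensor gene Ern1, which fell by 0.50 (adjusted p = 0.00980), and Atf6b, which fell by 0.46 (adjusted p = 0.0444). Xbp1 differed by -0.18 (adjusted p = 0.184) and Atf6 by 0.10, and neither passed.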

How the data were processed

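Liver RNA of 35 mice was measured on Affymetrix 3′ arrays. Per the submitters' processing notes, RMA and Partek were used, with no versions given. The authors deposited log values without a stated base, read here as log2 from their range of 1.74 to 14.23. Of 45141 probe sets, 104 controls were left out. The platform annotation gave 28898 probe sets 1 symbol, 551 several and 15588 none here. The brightest probe set naming a gene alone stood for it. Groups and replicate numbers came from the labels.

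Linear models were fitted to all 35 arrays with limma 3.58.1 in R 4.3.3 (28 residual and 5.41 prior degrees of freedom), with Benjamini-Hochberg adjustment across 45037 probe sets. Differences are on the log2 scale with the SE of the fit. Paralog pairs and array measures used two-sided exact permutation tests over 252 divisions of 10 arrays. The fit was tested on simulated data. Levels are not compared between genes, since probe sets differ in response. Alternatives were other scalings, filters, priors, array weights, probe set rules, covariates, the replicate block and leaving out each mouse.

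Members, lists and tests were chosen with earlier results of these data known. Values per mouse were given for the 2 members of each role with the smallest p in the F test. Differences were given for these, for the 12 largest changes among members that passed at 120 ppm, for members that passed at 20 ppm or lower and for those in the minority direction of their role. Of each other pathway list, up to 4 passing genes with the largest change were named. Other members were named after their values were seen.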

Additional observations from a re-analysis of the deposited data

Results flagged for a closer look

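Of 133 combinations of a named member and a group, 6 held a mouse whose gap to the nearest of its group was more than 0.71 of the group's range, where chance alone gives about 1 in 20. At 40 ppm the mouse of replicate 2 was the highest for Srprb, at 6.89 with the nearest mouse at 5.84, for Tmed3, at 9.07 with the nearest at 8.02, and for Sec22b, at 8.86 with the nearest at 8.43. At 120 ppm replicate 2 was the lowest for Sec23a, at 9.54 with the nearest at 9.76, and replicate 4 was the highest for Sec23b, at 9.16 with the nearest at 8.83. At 1 ppm replicate 1 was the lowest for Srp9, at 9.70 with the nearest at 9.93.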

How the results depend on the processing

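The count of members that passed was most fragile at 20 ppm. It was 3, lay between 0 and 5 when 1 mouse was left out, and was 0 when only the 20 ppm and air arrays were fitted with limma (8 members at an unadjusted p under 0.05). At 1 ppm it was 0 and lay between 0 and 1, with Srp9 passing without air replicate 2. Leaving out 1 mouse gave counts of 9 to 16 at 40 ppm, with 9 without air replicate 2 or 40 ppm replicate 5, and of 13 to 18 at 120 ppm. The value for Srp9 at 120 ppm against air turned to -0.0907 with centred arrays and to -0.0654 as a mean of probe sets, and lay between -0.0426 and 0.102 when 1 mouse was left out. The cause was not tested. Averaging probe sets ended the calls for Spcs1 at 120 ppm against air (0.16, adjusted p = 0.0607), Trappc4 at 120 ppm against air (-0.05) and Sec22b at 120 ppm against air (-0.27, adjusted p = 0.0651). Spcs1 did not pass when only these groups were fitted (adjusted p = 0.0685), and Copz1 at 120 ppm against air passed with centred arrays (-0.26, adjusted p = 0.0457). For members called at 120 ppm against air, centring turned the split over all probe sets into 2943 higher and 5560 lower, against 5846 and 2881 as deposited. Centring turned the slope split of the members into 2 rising and 26 falling. The slope split over all probe sets with centred arrays is not given here, so the 26 cannot be read as particular to the members. Correlations between the deviations of same-numbered mice of different groups were -0.39 to 0.37 (105 pairs, median 0.03, 31 over 0.1). Those between differently numbered mice were -0.48 to 0.61 (420 pairs, median -0.01, 94 over 0.1). What the replicate numbers stand for was not tested. With the replicate block 18 members passed at 120 ppm, 13 at 40 ppm, 2 at 20 ppm and 22 in the F test. Shares over all probe sets with the block are not given here. No measure of signal over background was used here.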
